A study of Rattus norvegicus with 21 samples.

Results

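The genes described here are 9 textbook targets and regulators of the tumour suppressor p53, measured in rat liver after short oral dosing with tert-butylphenyl diphenyl phosphate (BPDP), an aryl phosphate ester added to plastics to slow burning and soften them. They were chosen by name as Cdkn1a, Mdm2, Ccng1, Bax, Gadd45a, Btg2, Phlda3, Sesn1 and Rprm, and a probe set was taken as theirs where the array's annotation gave that symbol and no other. In this way 7 of the 9 were measured, by 11 probe sets, among 14217 genes in all. The probe set that names Bax also names another gene, so its values cannot be assigned and are not described, and Btg2 was not analysed here. The animals were male Harlan Sprague Dawley rats gavaged on 4 days in a row, and liver was sampled from the left lobe on day 5. The vehicle was corn oil, and the vehicle group has 6 arrays, although the protocol mentions 5 vehicle rats. The dosed groups received 64.6, 129.2, 258.1, 516.2 or 1032.5 mg/kg of BPDP (0.169 mmol/kg at the lowest and 2.7 mmol/kg at the highest), with 3 arrays each. The labels number replicates and do not say more about the animals behind them, so p-values measure the spread between these samples. The labels also give no time of day of sampling, batch or RNA quality.

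p53 is a transcription factor that is held at a low level by the ubiquitin ligase MDM2 and is released when DNA damage or other stress is sensed. It then binds paired half-sites near its target genes, which slow the cell cycle, repair DNA, limit growth signalling or promote cell death. Mdm2 is itself a target, which closes a feedback loop. Several of the targets also answer to other inputs: Cdkn1a, for instance, follows the circadian clock in mouse liver, where REV-ERB and ROR receptors act on it in opposite directions.

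The sequences below are the windows from 250 bases before to 50 bases after the annotated start of the 3 members whose level changed, from the RefSeq table of build GRCr8. They are shown because these 3 genes moved in different ways, and each is printed in its gene's own direction. RefSeq held such a window for 8 of the 9 members. Capitals mark a p53 half-site in Cdkn1a and the nuclear receptor half-site AGGTCA, read on the opposite strand, in Rprm.
Cdkn1a, chr20:7150682-7150981, plus strand: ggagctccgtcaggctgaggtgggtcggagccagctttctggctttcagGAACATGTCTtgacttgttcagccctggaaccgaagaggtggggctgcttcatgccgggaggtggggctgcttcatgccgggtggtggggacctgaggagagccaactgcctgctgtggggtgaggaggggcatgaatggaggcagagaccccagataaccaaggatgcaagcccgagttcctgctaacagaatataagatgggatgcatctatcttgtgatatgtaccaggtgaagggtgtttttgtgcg
Rprm, chr3:58949986-58950285, minus strand: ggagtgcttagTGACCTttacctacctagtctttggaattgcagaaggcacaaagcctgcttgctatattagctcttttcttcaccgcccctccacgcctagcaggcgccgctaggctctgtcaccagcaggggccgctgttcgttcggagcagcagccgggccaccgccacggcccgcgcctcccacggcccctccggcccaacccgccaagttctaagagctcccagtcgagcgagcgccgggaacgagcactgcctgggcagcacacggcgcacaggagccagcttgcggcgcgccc
Mdm2, chr7:55200742-55201041, minus strand: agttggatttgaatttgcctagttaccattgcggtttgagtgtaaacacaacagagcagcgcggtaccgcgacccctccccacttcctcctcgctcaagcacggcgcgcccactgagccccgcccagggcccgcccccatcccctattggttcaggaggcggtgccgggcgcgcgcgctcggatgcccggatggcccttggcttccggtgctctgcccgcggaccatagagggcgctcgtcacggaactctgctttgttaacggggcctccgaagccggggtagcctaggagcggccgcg

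A script searched both strands of every window for a single p53 half-site, for the E-box CACGTG bound by clock activators, and for AGGTCA. The p53 half-site was found in 4 of the 8 member windows (Cdkn1a, Ccng1, Gadd45a and Sesn1) and in 7.98% of the 33469 windows searched. In Cdkn1a it lies at bases -201 to -192 from the start. AGGTCA was found in 3 of the 8, those of Rprm (bases -239 to -234), Gadd45a and Btg2, and in 16.2% of all windows. The E-box was in none of the 8 and in 6.42% of all windows. A match is a description of letters, and the known p53 sites of a gene may lie outside a window of this length.

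Array values carry no read depth, and precision is limited by the number of arrays. Any 2 arrays had an r of 0.984 to 0.995 over all probe sets, and array medians lay between 6.30 and 6.39 log2 units. The 5' minus 3' signal of control probe sets, a measure of RNA integrity, ran from -3.10 to -1.28 log2 units. Its group means were -1.95 in the vehicle and -1.97, -1.73, -2.03, -2.30 and -1.54 with rising dose. With it as a covariate, calls over all genes at 516.2 mg/kg went from 1270 to 951. Vehicle replicate 6 was the vehicle array least like its own group (mean r of 0.989, against 0.993 for the nearest of the others) and carried the highest neutrophil signal. Its S100a8 was 7.39 against 4.60 to 5.25 on the other vehicle arrays, and its S100a9 was 9.29 against 6.03 to 7.02. It was the highest vehicle array for Cdkn1a, Ccng1 and Gadd45a and the lowest for Rprm and Phlda3, so member results that move without it are given both ways. The part of neutrophil RNA in these values was not tested. The labelled tissue was borne out by its markers, with vehicle means of 15.34 for Alb and 14.86 for Ttr.

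BPDP-dosed livers had less Cdkn1a RNA at every dose, less Rprm RNA at 258.1 and 1032.5 mg/kg, and more Mdm2 RNA at 516.2 and 1032.5 mg/kg. Ccng1, Gadd45a, Phlda3 and Sesn1 passed the test at no dose. The test throughout was limma's moderated test on log2 signal against the vehicle, with an adjusted p under 0.05 over 31042 probe sets counted as a call. All 5 comparisons share the 6 vehicle arrays, so a call repeated over doses is not independent evidence.

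Of the 7 members, 0 were called higher and 1 lower at 64.6 mg/kg, where 0.197% of all genes were higher and 0.190% lower. At 129.2 mg/kg the member counts were again 0 and 1, beside 0.352% and 0.169% of all genes. At 258.1 mg/kg 0 were higher and 2 lower, beside 2.23% and 1.33%. At 516.2 mg/kg 1 was higher and 1 lower, beside 6.30% and 2.64%, and at 1032.5 mg/kg 1 was higher and 2 lower, beside 4.81% and 4.14%. The median log2 change of the members was -0.15, -0.14, -0.17, -0.08 and -0.14 from the lowest dose to the highest, against -0.00, -0.01, 0.01, 0.00 and -0.01 for all genes. The members therefore did not move as a block: at 1032.5 mg/kg their log2 changes ran from -2.76 to 0.89. The moderated F over the 5 doses called 3 members, Cdkn1a, Mdm2 and Rprm, beside 6.71% of all genes.

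**Figure D1:**
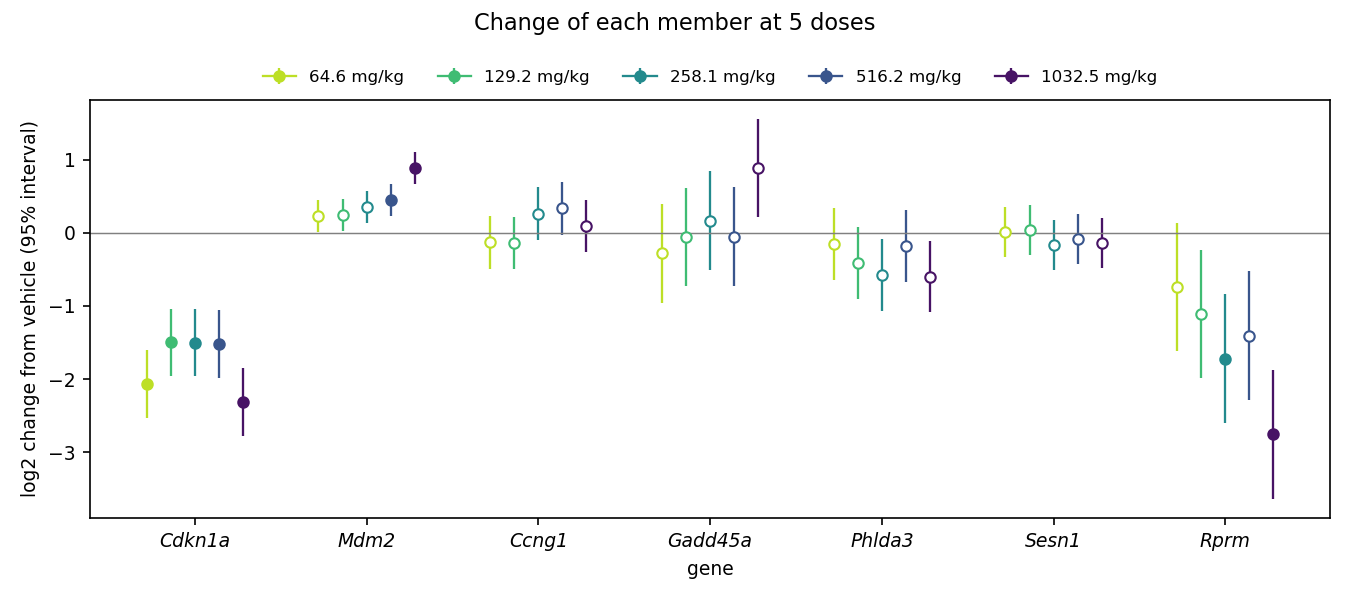
Log2 change from the vehicle (vertical axis) of the 7 measured members (horizontal axis), with a colour for each dose of BPDP in mg/kg, 95% moderated confidence intervals and filled points where the adjusted p was under 0.05. Cdkn1a lies between -2.32 and -1.50 at all 5 doses, Rprm reaches -2.76 and Mdm2 reaches 0.89 at 1032.5 mg/kg.

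Cdkn1a encodes p21, the cyclin-dependent kinase inhibitor through which p53 halts the cell cycle. Its brighter probe set (1388674_at) read 9.71, 9.96, 10.06, 9.56, 10.24 and 11.06 log2 units in the 6 vehicle livers. It read 7.98, 8.27 and 7.85 at 64.6 mg/kg, and 8.39, 8.95 and 8.47 at 129.2 mg/kg. At 258.1 mg/kg it read 8.66, 8.74 and 8.39, at 516.2 mg/kg 8.62, 8.43 and 8.69, and at 1032.5 mg/kg 7.59, 7.82 and 7.94. Every one of the 15 dosed livers lay below every vehicle liver, so no dosed group overlapped the vehicle.

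The mean fell from 10.10 ± 0.53 (SD, n = 6) in the vehicle to 8.03 ± 0.21 (n = 3) at the lowest dose, a log2 change of -2.07 (SE 0.22, limma adjusted p = 3.97e-05), which is 4.18-fold lower. At 129.2, 258.1 and 516.2 mg/kg the gene was 2.82-fold, 2.83-fold and 2.87-fold lower, with limma adjusted p of 0.00232, 0.000624 and 0.000361. At 1032.5 mg/kg it was 4.98-fold lower (log2 change -2.32, adjusted p = 1.53e-06). The fall at the lowest dose lay between those at 516.2 and 1032.5 mg/kg. Among the 15 dosed livers alone the slope was -0.05 log2 units per dose step (95% interval -0.19 to 0.08, limma adjusted p = 0.759). On dose in mg/kg it was -0.00053 log2 units per mg/kg (95% interval -0.00102 to -4.2e-05), which was not called either (limma unadjusted p = 0.0348, adjusted p = 0.377).

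The dose order of Cdkn1a was not monotonic. It was 0.57 log2 units higher at 129.2 than at 64.6 mg/kg (unadjusted p = 0.0382, limma adjusted p = 0.999) and 0.80 lower at 1032.5 than at 516.2 mg/kg (log2 difference -0.80, unadjusted p = 0.00544, limma adjusted p = 0.389). Neither step passed the adjusted threshold, and the steps from 129.2 to 258.1 and from 258.1 to 516.2 mg/kg were -0.00 and -0.02 log2 units. Without vehicle replicate 6, the highest vehicle array, the log2 changes were -1.87, -1.31, -1.31, -1.33 and -2.12, all still called. In a fit of only the 129.2 mg/kg and vehicle arrays the adjusted p at that dose was 0.0526.

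A second Cdkn1a probe set (1387391_at) was much dimmer, at 6.06 ± 0.21 log2 units in the vehicle, and 38.7% of all probe sets were dimmer still. Its log2 changes were -0.53, -0.25, -0.36, -0.39 and -0.56 from the lowest dose to the highest. All 5 were in the same direction as those of the brighter probe set, but only the change at 1032.5 mg/kg was called (limma adjusted p = 0.0407), the other 4 having adjusted p from 0.165 to 0.829. At 64.6, 258.1 and 1032.5 mg/kg its arrays did not overlap the vehicle, whereas at 129.2 and 516.2 mg/kg they did. The call at the 4 lower doses therefore rests on the brighter probe set.

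Rprm encodes reprimo, a small p53-inducible protein linked to arrest before mitosis. Its single probe set (1390672_at) read 8.81, 8.41, 8.93, 8.60, 8.83 and 7.07 log2 units in the vehicle livers. It read 7.99, 7.83 and 7.28 at 64.6 mg/kg, 7.63, 7.80 and 6.56 at 129.2 mg/kg, and 7.17, 7.37 and 5.62 at 258.1 mg/kg. At 516.2 mg/kg it read 7.47, 6.40 and 7.22, and at 1032.5 mg/kg 5.62, 5.03 and 6.40. All dosed livers were below the first 5 vehicle livers. Because vehicle replicate 6 was itself low, only the 1032.5 mg/kg group lay below all 6.

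The mean of Rprm went from 8.44 ± 0.70 (SD, n = 6) in the vehicle to 5.68 ± 0.69 (n = 3) at 1032.5 mg/kg, a log2 change of -2.76 (SE 0.42, limma adjusted p = 0.000297) or 6.77-fold lower. That mean at 1032.5 mg/kg lay below the array medians of 6.30 to 6.39 log2 units, so this fold comes from a dim signal. At 258.1 mg/kg Rprm was 3.30-fold lower (log2 change -1.72, limma adjusted p = 0.0334). The log2 changes at 64.6, 129.2 and 516.2 mg/kg were -0.74, -1.11 and -1.41, with limma adjusted p of 0.711, 0.502 and 0.0528. In contrast to Cdkn1a, Rprm had a called slope among the 15 dosed livers, of -0.43 log2 units per dose step (95% interval -0.66 to -0.21, limma adjusted p = 0.0391). Among all genes 2.28% had a called upward slope and 1.13% a downward one.

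Single arrays weighed on the lesser Rprm calls. Without vehicle replicate 6 the log2 changes were -1.02, -1.38, -1.996, -1.68 and -3.03, and the change at 516.2 mg/kg was then called as well (limma adjusted p = 0.00975). The call at 258.1 mg/kg was lost on leaving out any one of vehicle replicates 1 to 5, or replicate 1 or 3 of that dose. Without replicate 3, the array at 5.62, the log2 change there was -1.17 (adjusted p = 0.297). The slope was called no longer without any one of the 64.6 mg/kg arrays, replicate 1 or 2 at 129.2 mg/kg, replicate 2 at 516.2 mg/kg, or replicate 1 or 2 at 1032.5 mg/kg. The call at 1032.5 mg/kg held on leaving out any array.

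**Figure D2:**
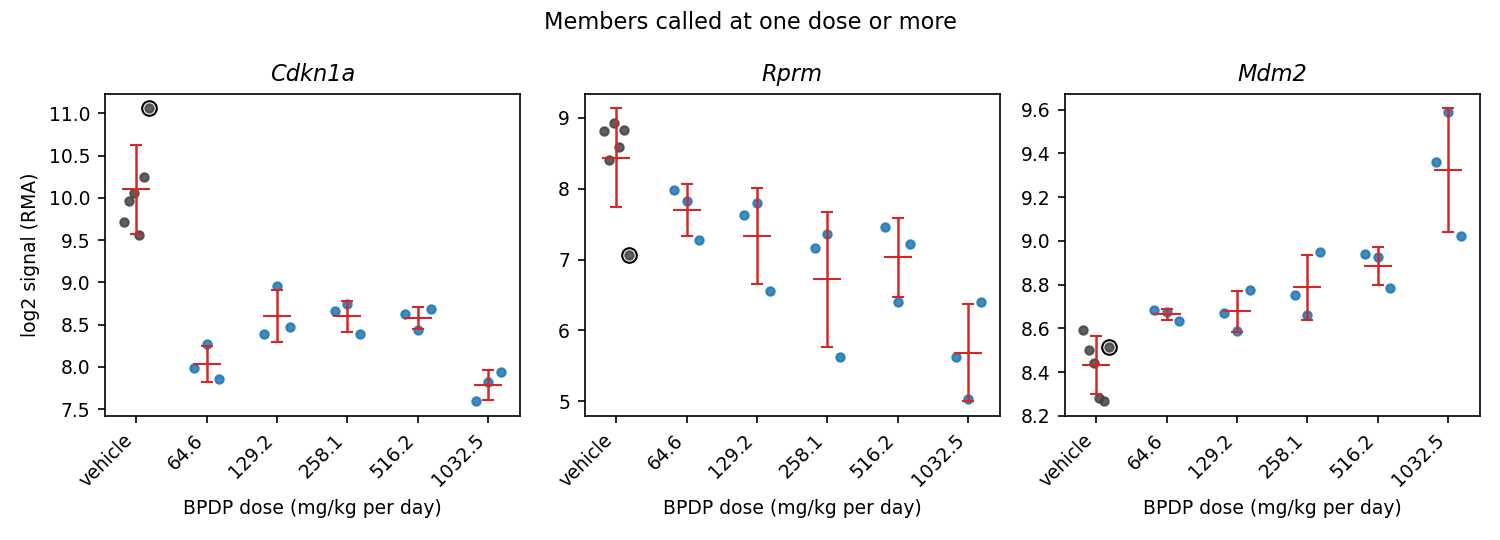
Log2 signal (vertical axis) of Cdkn1a, Rprm and Mdm2 on each of the 21 arrays by BPDP dose in mg/kg (horizontal axis), with the mean ± SD of each group in red and vehicle replicate 6 ringed. Cdkn1a drops at the lowest dose, Rprm is lowest at 1032.5 mg/kg with a mean of 5.68, and Mdm2 is highest there with a mean of 9.32.

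Mdm2, the ligase that ubiquitinates p53, moved the other way. Its brightest probe set (1383288_at) read 8.59, 8.50, 8.44, 8.28, 8.27 and 8.52 log2 units in the vehicle livers. It read 8.68, 8.67 and 8.63 at 64.6 mg/kg, 8.67, 8.59 and 8.78 at 129.2 mg/kg, and 8.75, 8.66 and 8.95 at 258.1 mg/kg. At 516.2 mg/kg it read 8.94, 8.93 and 8.79, and at 1032.5 mg/kg 9.36, 9.59 and 9.02. All dosed groups except 129.2 mg/kg, whose lowest array fell just inside the vehicle range, lay wholly above the vehicle.

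Mdm2 rose from 8.43 ± 0.13 (SD, n = 6) to 8.88 ± 0.09 (n = 3) at 516.2 mg/kg, which is 1.37-fold (limma adjusted p = 0.0134). It rose to 9.32 ± 0.28 (n = 3) at 1032.5 mg/kg, which is 1.85-fold (log2 change 0.89, SE 0.10, limma adjusted p = 1.42e-05). The log2 changes at 64.6, 129.2 and 258.1 mg/kg were 0.23, 0.25 and 0.35, with limma adjusted p of 0.577, 0.583 and 0.0839. The slope among the dosed livers was 0.15 log2 units per step (95% interval 0.09 to 0.22, limma adjusted p = 0.0136). The call at 516.2 mg/kg was lost without replicate 1 of that dose (limma adjusted p = 0.0834).

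Mdm2 had 2 further probe sets, which differed from each other. On 1384427_at the vehicle mean was 8.03 ± 0.12 log2 units, and the log2 changes were 0.30, 0.37, 0.65, 0.82 and 1.003 with rising dose. Those at 258.1, 516.2 and 1032.5 mg/kg were called (limma adjusted p = 0.00707, 0.000553 and 3.57e-05), and so was its slope (limma adjusted p = 0.00453). On 1383485_at the vehicle mean was lower, at 6.64 ± 0.15, and the log2 changes of 0.14, 0.19, 0.16, 0.06 and 0.35 were not called (limma adjusted p = 0.122 at 1032.5 mg/kg). Its 3 arrays at 1032.5 mg/kg nevertheless lay above all 6 vehicle arrays. The rise was thus seen on both brighter probe sets and not called on the third.

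**Figure D3:**
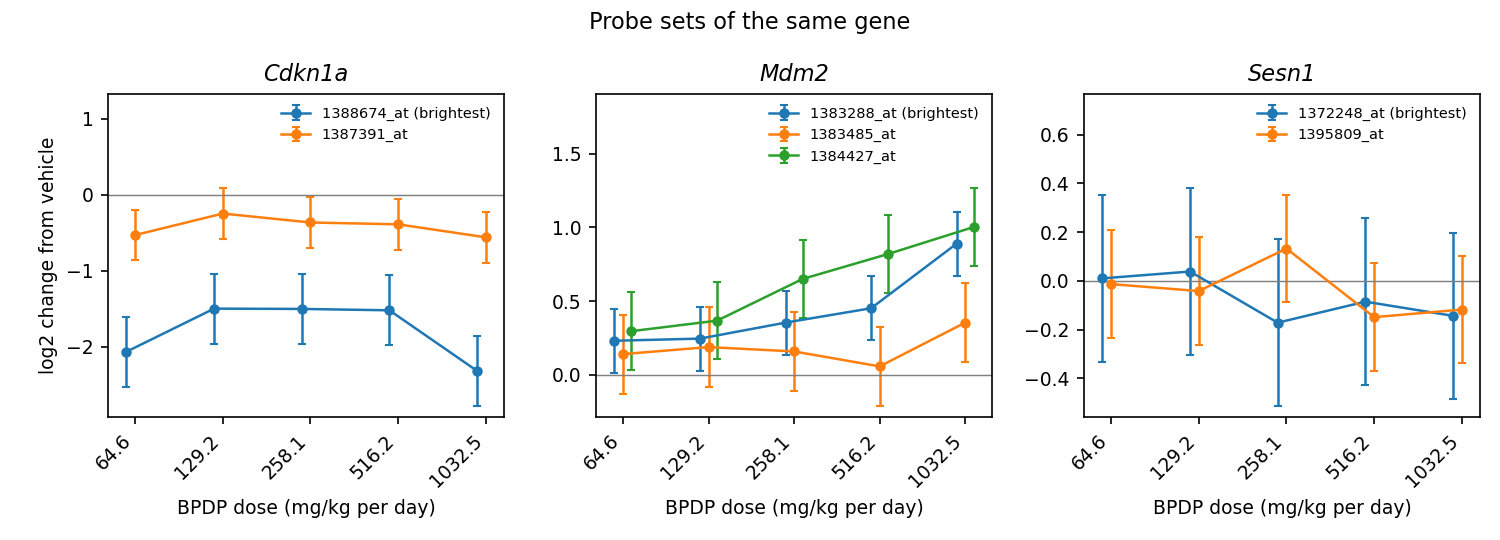
Log2 change from the vehicle (vertical axis) by BPDP dose in mg/kg (horizontal axis) for every probe set of the members that have more than 1, with 95% moderated confidence intervals. The brighter Cdkn1a probe set shows changes of -1.50 or beyond and the dimmer one none beyond -0.56, and 1383485_at of Mdm2 stays below 0.36.

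Neighbouring doses were also compared directly. For 129.2 against 64.6, 258.1 against 129.2, 516.2 against 258.1, and 1032.5 against 516.2 mg/kg, limma called 0 of the 7 members and 0% of all genes each time. At an unadjusted p under 0.05 the same steps held 1, 0, 0 and 4 members and 679, 684, 1023 and 1471 genes. The 4 members in the last step were Rprm (log2 difference -1.35, unadjusted p = 0.0119), Gadd45a (0.94, unadjusted p = 0.0206), Cdkn1a (-0.80, unadjusted p = 0.00544) and Mdm2 (0.44, unadjusted p = 0.00157). For Rprm and Mdm2 the limma adjusted p was 0.423 and 0.337.

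Among the other targets, Ccng1 encodes cyclin G1, which recruits a phosphatase to MDM2. It read 8.82, 8.85, 8.97, 8.73, 8.98 and 9.65 in the vehicle, and group means of the dosed livers lay between 8.87 and 9.34. Its log2 changes were -0.13, -0.14, 0.26, 0.34 and 0.09 (SE 0.17, limma adjusted p at or above 0.276), and every dosed group overlapped the vehicle. The 95% interval at 516.2 mg/kg ran from -0.02 to 0.69. Without vehicle replicate 6 the log2 change there was 0.47 (limma adjusted p = 0.0465), so this call depends on that array.

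Gadd45a encodes a stress-inducible protein of arrest and DNA repair. In the vehicle it read 8.53, 8.25, 8.53, 9.27, 9.25 and 9.74 log2 units. At 258.1 mg/kg its 3 arrays spread over 8.14, 8.999 and 10.14, whereas at 1032.5 mg/kg they read 9.99, 9.98 and 9.48. The log2 changes were -0.28, -0.06, 0.17, -0.05 and 0.89 (SE 0.32). That at 1032.5 mg/kg had a 95% interval of 0.21 to 1.56 and a limma adjusted p of 0.122. It was 1.05 without vehicle replicate 6 (adjusted p = 0.0439) and 0.89 without replicate 3 of the 258.1 mg/kg group (adjusted p = 0.0453). With array weights it was 0.96 (limma adjusted p = 0.0398) and with a replicate block 1.38 (limma adjusted p = 0.0231).

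Phlda3, whose product blocks Akt at the membrane, read 9.38, 9.26, 9.86, 9.31, 8.67 and 8.25 in the vehicle livers. At 258.1 mg/kg it read 8.49, 8.54 and 8.59, and at 1032.5 mg/kg 8.24, 8.81 and 8.51. The log2 changes were -0.15, -0.41, -0.58, -0.18 and -0.60 (SE 0.24), with limma adjusted p of 0.270 at 258.1 mg/kg and 0.161 at 1032.5 mg/kg. Vehicle replicate 6 was the lowest vehicle array, and without it these 2 changes were -0.75 (adjusted p = 0.0304) and -0.77 (adjusted p = 0.0161).

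Sesn1 encodes sestrin 1, an inhibitor of mTORC1 signalling. Its vehicle arrays lay between 8.55 and 8.78 log2 units, the narrowest vehicle range of the 7 members. Its log2 changes were 0.01, 0.04, -0.17, -0.08 and -0.14, with limma adjusted p of 0.739 or more. The 95% interval at 1032.5 mg/kg ran from -0.48 to 0.20, which bounds any change there to less than that of Cdkn1a, Rprm or Mdm2 at the same dose. A dimmer probe set (1395809_at, vehicle mean 5.88) was not called at any dose either.

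**Figure D4:**
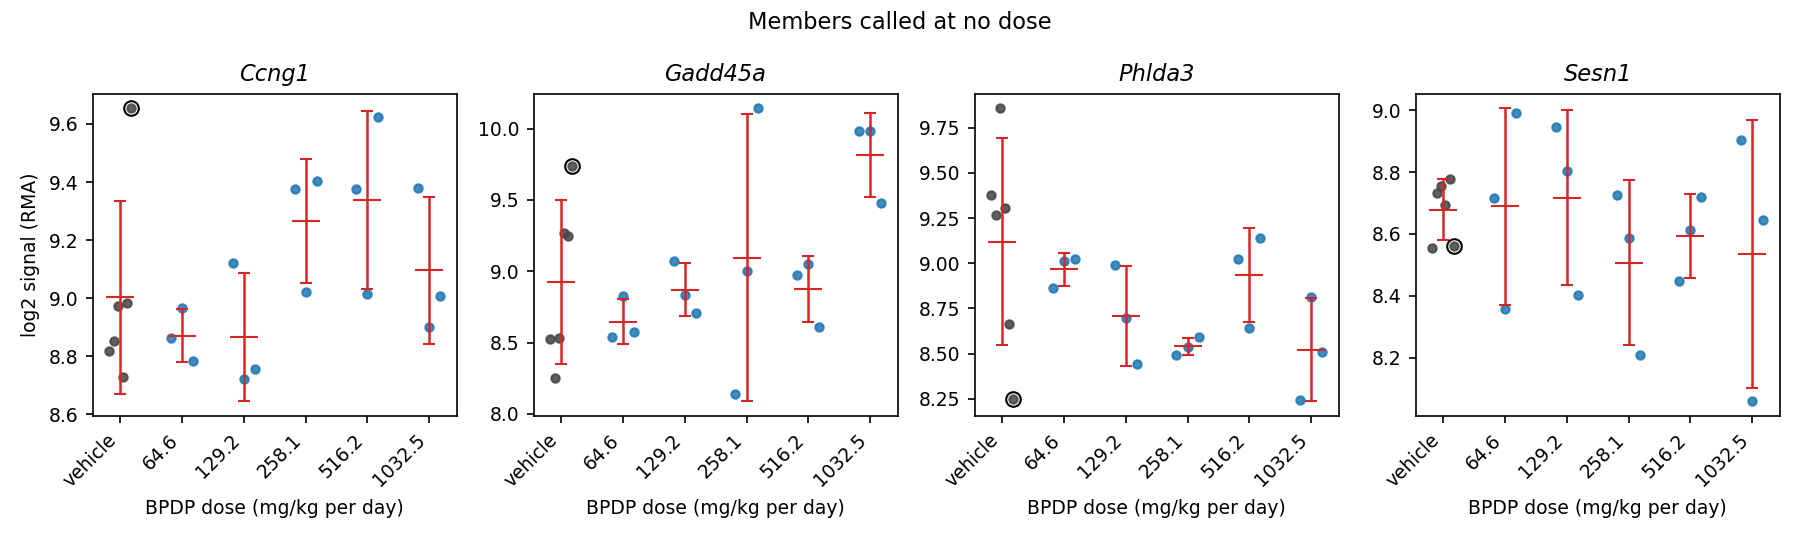
Log2 signal (vertical axis) of Ccng1, Gadd45a, Phlda3 and Sesn1 on each array by BPDP dose in mg/kg (horizontal axis), with the mean ± SD of each group in red and vehicle replicate 6 ringed. Every dosed group overlaps the vehicle range, and the 6 vehicle arrays of Gadd45a and Phlda3 span more than those of Sesn1.

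The members did not share 1 pattern over the 21 arrays. Mdm2 and Rprm had a Pearson r of -0.88, and -0.87 over the 15 dosed arrays alone. Cdkn1a and Rprm, both lower at 1032.5 mg/kg, had an r of 0.62 overall and 0.48 among the dosed arrays. In the 6 vehicle arrays, where vehicle replicate 6 sets much of the range, that r was -0.81. These values describe arrays that share the vehicle-to-dose contrast, and they carry no test.

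Of the 14216 other genes, the 5 most like Cdkn1a over 21 arrays were Slc16a1 (r of 0.932), Rnf8 (0.932), Lgalsl (0.905), Bmal1 (0.903) and Nfil3 (0.902). Slc16a1 encodes a lactate transporter, Rnf8 a ubiquitin ligase of the DNA damage response, Bmal1 a core activator of the clock and Nfil3 a repressor of clock output. Over the dosed arrays alone these r values were 0.623, 0.591, 0.334, 0.503 and 0.260, all lower than over the 21 arrays that include the vehicle. The 5 most like Rprm were Gckr (0.941), Mapkapk2 (0.919), Chka (0.911), Ttyh2 (0.902) and Pygl (0.901). Gckr encodes the glucokinase regulatory protein and Pygl liver glycogen phosphorylase. Over the dosed arrays alone they were 0.901, 0.848, 0.875, 0.817 and 0.905, which is closer to the values over all arrays.

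The clock genes that act on Cdkn1a in mouse liver were looked up beside it, 4 of 5 being measured. Nr1d1 and Nr1d2, the genes of the REV-ERB repressors, were higher at every dose, and Bmal1 was lower at every dose. The log2 changes of Nr1d1 were 2.81, 2.73, 2.62, 2.48 and 2.11 with rising dose, and those of Nr1d2 lay between 1.73 and 1.85. Bmal1 changed by -1.93, -1.63, -2.34, -2.28 and -2.75. Rora, the gene of a ROR activator, was not called (log2 change -0.17, limma adjusted p = 0.818 at 1032.5 mg/kg). None of Nr1d1, Nr1d2 and Bmal1 had a called slope among the dosed livers (limma adjusted p = 0.148, 0.852 and 0.104). This is no particular likeness to Cdkn1a, since only 2.28% of all genes had a called upward slope and 1.13% a downward one. The part of these clock genes in the level of Cdkn1a was not tested.

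The wider p53 pathway was read from 4 lists with 58 symbols, a few being second spellings of a listed gene. Of these symbols 43 were measured, each a different gene. From the lowest dose to the highest 0, 0, 0, 3 and 2 of them were called higher and 0, 0, 2, 3 and 4 lower. The shares of all genes called at 258.1 mg/kg were 2.23% higher and 1.33% lower. At 516.2 mg/kg they were 6.30% and 2.64%, and at 1032.5 mg/kg 4.81% and 4.14%. The 3 and 2 higher of 43 are thus near the background. The 2, 3 and 4 lower of 43 are above the shares called lower, but are few genes and carry no test. The 43 genes had median log2 changes of -0.00, 0.07, 0.07, 0.11 and 0.09. Of 12 measured upstream regulators, Atr, a kinase that signals stalled replication, was called at 516.2 mg/kg (log2 change 0.30, limma adjusted p = 0.0433) and none at 1032.5 mg/kg. Atr was dim, with a mean of 5.96 log2 units over all arrays, below every array median. The brightest of the 12 regulators were Cop1 and Rchy1, both p53 ubiquitin ligases, with log2 changes at 1032.5 mg/kg of 0.19 and 0.12 (limma adjusted p = 0.276 and 0.750). The gene of p53 itself was not analysed here.

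Of 11 measured apoptosis targets, Tp53i11 fell at 516.2 and 1032.5 mg/kg (log2 change -0.41 at the latter, limma adjusted p = 0.0236) and no other was called. Of 10 measured targets in arrest, repair and nucleotide supply, Xpc, a sensor of nucleotide excision repair, fell at the 3 highest doses. Its log2 changes there were -0.52, -0.49 and -0.68 (limma adjusted p = 0.00377, 0.00359 and 9.02e-05). Triap1, which encodes a p53-regulated survival factor, rose by 0.27 on the log2 scale at both 516.2 and 1032.5 mg/kg (limma adjusted p = 0.041 and 0.0416).

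Of 10 measured stress, metabolism and signalling targets, Ddit4, an inhibitor of mTORC1, rose at 516.2 and 1032.5 mg/kg. Its log2 changes were 1.56 and 1.38 (limma adjusted p = 0.00729 and 0.0125). Igfbp3, a binding protein of insulin-like growth factors, fell at the 3 highest doses, with log2 changes of -0.69, -1.20 and -1.25 (limma adjusted p = 0.0263, 0.000173 and 5.03e-05). Steap3, a ferrireductase, fell at 1032.5 mg/kg (log2 change -0.72, limma adjusted p = 0.021). Of these genes Igfbp3 and Xpc had called slopes among the dosed livers (limma adjusted p = 0.00401 and 0.042).

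Among 18 measured relatives of the members, Tob1, a relative of Btg2, rose at 516.2 and 1032.5 mg/kg (log2 changes 0.69 and 0.60, limma adjusted p = 0.0231 and 0.0452). Tob2 rose at 129.2 mg/kg (log2 change 1.02, limma adjusted p = 0.0264). Cdkn1c, a relative of Cdkn1a that encodes p57, fell at 1032.5 mg/kg (log2 change -0.36, limma adjusted p = 0.0439). Counts over the list were 0, 1, 0, 1 and 1 higher and 0, 0, 0, 0 and 1 lower from the lowest dose to the highest. A count of 1 in 18 at 516.2 or 1032.5 mg/kg is near the share of all genes called higher there (6.30% and 4.81%). So is the 1 lower at 1032.5 mg/kg beside 4.14% of all genes called lower. The 1 higher at 129.2 mg/kg is above the 0.352% of all genes, but is a single gene and carries no test.

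Since p21 restrains proliferation, 20 proliferation genes were read as well. From the lowest dose to the highest 0, 0, 2, 6 and 0 were called higher and 0 lower at any dose, beside 0.197%, 0.352%, 2.23%, 6.30% and 4.81% of all genes called higher. These genes had median log2 changes of -0.15, -0.08, 0.13, 0.33 and -0.09. Arrays' mean levels over the 20 genes were 6.16 to 6.90 log2 units in the vehicle. They were 6.66 to 6.76 at 258.1 mg/kg, inside the vehicle range, and 6.69 to 7.04 at 516.2 mg/kg, which overlapped it. The calls at 516.2 mg/kg, named after their values were seen, were the cyclin genes Ccnb2 (log2 change 1.05) and Ccna2 (1.13), the mitotic genes Bub1 (0.84) and Birc5 (0.54), and the replication genes Mcm2 (0.38) and Tyms (0.44). Those at 258.1 mg/kg were Ccnb2 (1.01) and Birc5 (0.60). At 1032.5 mg/kg, where Cdkn1a was lowest, the 2 brightest genes were Ccnd1 and Cdk4, with log2 changes of 0.18 and 0.33 (limma adjusted p = 0.850 and 0.0553). The part of Cdkn1a in these values was not tested.

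**Figure D5:**
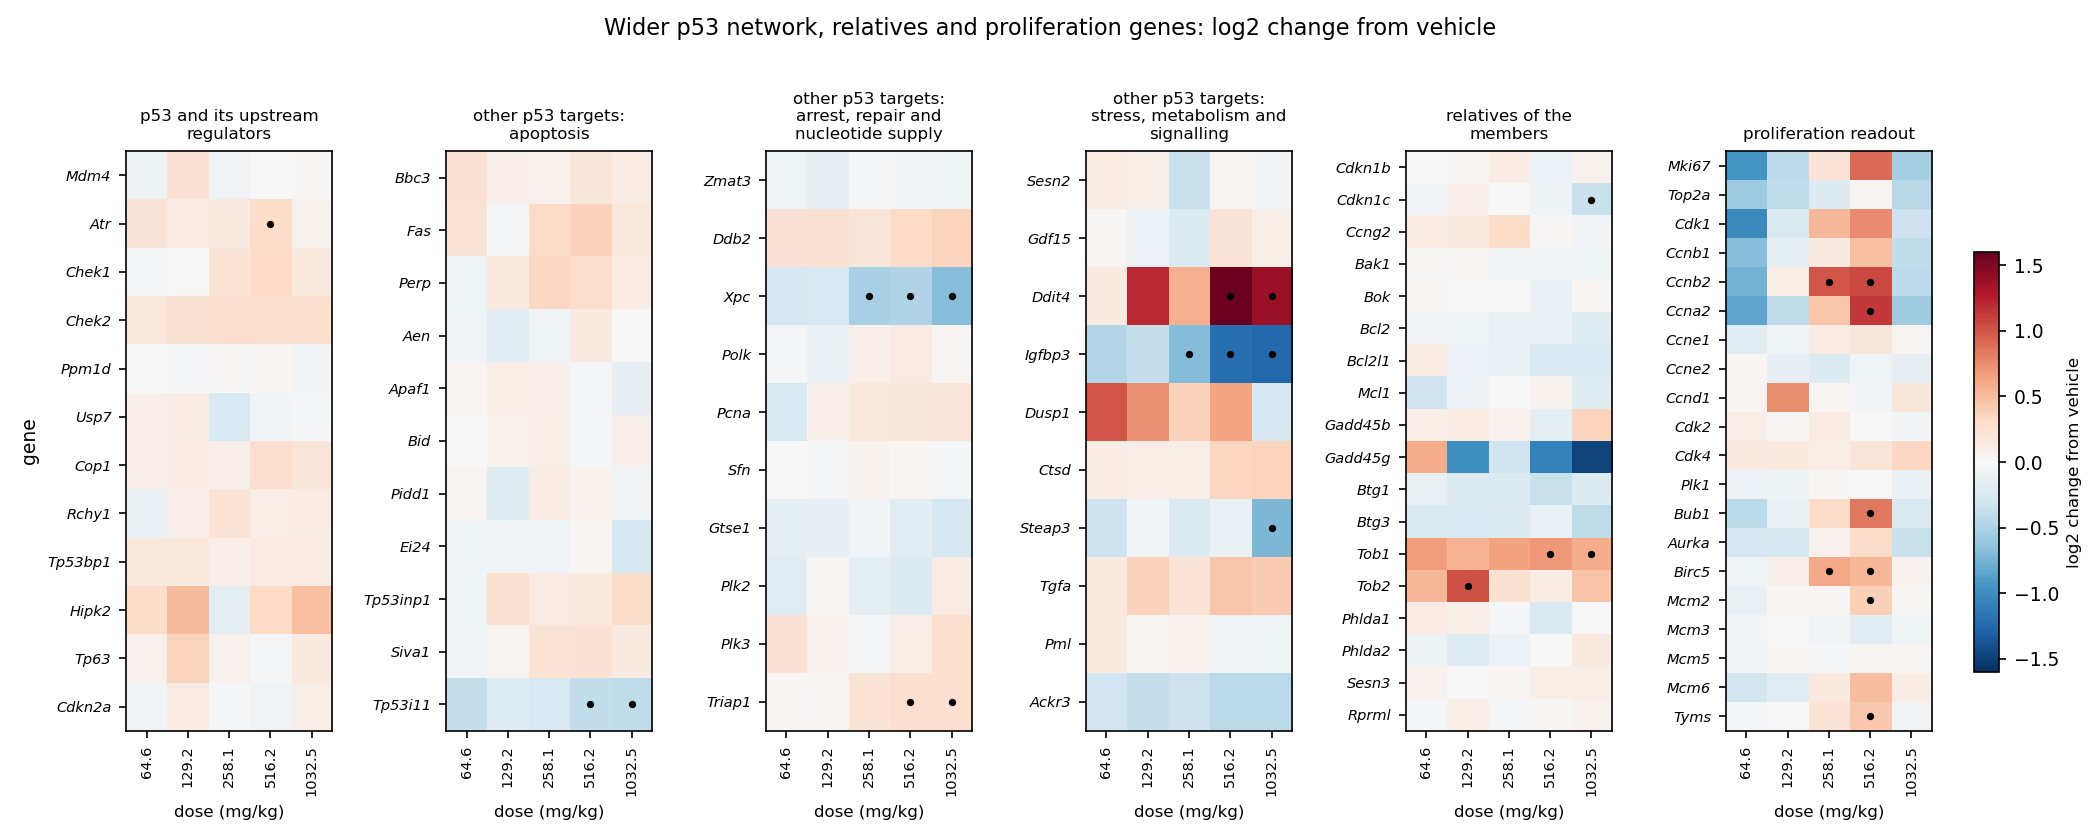
Log2 change from the vehicle, as colour, for every measured gene of the 4 wider p53 lists, the members' relatives and the proliferation genes (rows) at each dose of BPDP in mg/kg (columns), with a dot where the adjusted p was under 0.05. Dots are few in the p53 lists, where Xpc and Igfbp3 are lower at the 3 highest doses and Ddit4 higher at 516.2 and 1032.5 mg/kg, and proliferation genes are marked at 258.1 and 516.2 mg/kg.

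Markers of other liver cells moved at the higher doses too. Of all genes, 1.33%, 2.64% and 4.14% were called lower at 258.1, 516.2 and 1032.5 mg/kg. The share of all genes called higher at 1032.5 mg/kg was 4.81%. A single call among so few markers says little about its cell type. At 1032.5 mg/kg 2 of 6 measured Kupffer cell markers were lower, with arrays' mean marker levels of 8.91 to 9.32 against 9.39 to 10.00 in the vehicle. Likewise 3 of 8 stellate cell markers were lower (7.62 to 7.75 against 7.998 to 8.37), as were 2 of 6 lymphocyte markers (5.56 to 5.65 against 5.81 to 6.11). Of 8 hepatocyte markers 1 was lower, Cyp2c11, with mean levels of 13.50 to 13.71 against 13.69 to 13.89. Epcam was higher among 4 cholangiocyte markers, and none of 4 endothelial or 3 neutrophil markers was called. No marker was at 0, as log2 array values have a floor well above it. At 516.2 mg/kg 5 of 8 stellate cell markers were lower (mean levels 7.28 to 7.78, median log2 change -0.64), as were 2 of 8 hepatocyte, 1 of 4 endothelial and 1 of 6 lymphocyte markers. At 258.1 mg/kg 2 of 8 stellate cell markers were lower. At 64.6 mg/kg 0 markers were called, while all 6 Kupffer cell, all 4 endothelial and all 3 neutrophil markers had log2 changes below 0, with medians of -0.10, -0.22 and -0.79. The neutrophil median leans on vehicle replicate 6 and was not computed without it. Arrays' mean neutrophil marker levels were 5.35 to 7.41 in the vehicle, the highest being that array, and 5.15 to 5.48 at 64.6 mg/kg. In whole liver, fewer cells of a type and less RNA per cell cannot be told apart, and the part of cell makeup in the member values was not tested at any dose.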

How the data were processed

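Rat liver RNA was measured on 21 Affymetrix arrays from 100 ng of total RNA with biotin labelling, per the labels' protocols. The authors deposited a log2 signal for each probe set on each array. It was made with RMA, per the submitters' processing notes, whose software and settings the sources used here do not state. They were used as deposited, with no filter, scaling or pseudocount. RMA ties the arrays to 1 distribution, so changes are relative to it.

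After removal of 57 controls, 31042 probe sets were tested, of which 20826 name 1 gene, 436 several and 9780 none. Symbols were updated through Entrez identifiers for 20758, and 68 stayed as annotated. A gene was read from its brightest probe set naming it alone, which gave 14217 genes. limma 3.58.1 in R 4.3.3 fitted 1 coefficient per dose group to all 21 arrays (lmFit and eBayes), and a slope per dose step to the 15 dosed arrays. P-values are two-sided, with Benjamini-Hochberg adjustment over the 31042 probe sets and a threshold of 0.05. The fit was tested on simulated data.

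The members and the gene lists were chosen with earlier results of these data known, so they give no independent support. Named were all members with every probe set, up to 4 called genes per wider list at 1032.5 mg/kg or else the 2 brightest, the clock genes acting on Cdkn1a, and the 5 genes most like Cdkn1a and Rprm. Genes called at other doses were named after their values were seen. Listed genes without a probe set of their own were not analysed here. Alternatives were the groups compared alone, cyclic loess, median subtraction, a dimness filter, trended robust variance, array weights, a fold of 1.5, the replicate block, dose in mg/kg, other probe sets and each array left out. A covariate for the 5' minus 3' control probe sets was added after the data were seen.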

Additional observations from a re-analysis of the deposited data

Results flagged for a closer look

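In 2 of the 11 sets of member values tested for an outlying array, the array farthest from the rest exceeded Dixon's critical value. Chance flags about 1 in 20 independent sets, but these sets share arrays and are not independent, so the 2 cannot be set against that rate. In both sets the array was vehicle replicate 6. Its Ccng1 signal was 9.65 log2 units, against 8.73 to 8.98 on the other 5 vehicle arrays, a gap of 0.723 of the group's range. Its Rprm signal was 7.07, against 8.41 to 8.93, a gap of 0.721 of the range. The same array had the highest S100a8 and S100a9 signals of the vehicle group, and their part was not tested.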

How the results depend on the processing

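Scaling by cyclic loess or array medians, the dimness filter, averaging of a gene's probe sets, dose in mg/kg and the 5' minus 3' covariate each left every member count within 1.5 times its value, and the scalings moved the median of all genes by under 0.1. Within that limit, averaging the probe sets made Mdm2 called at 258.1 mg/kg (limma adjusted p = 0.0293). The dimness filter made Rprm called at 516.2 mg/kg (limma adjusted p = 0.0453). No called value changed direction under any alternative, and 28 sign changes occurred among values not called. With only the groups compared, member calls were 0 at 129.2 mg/kg and 1 at 258.1 mg/kg. With array weights they were 2 at 129.2 mg/kg (Cdkn1a and Phlda3), while calls over all genes there went from 74 to 1154. The same weights made Rprm called at 516.2 mg/kg (limma adjusted p = 0.0226) and Gadd45a at 1032.5 mg/kg (limma adjusted p = 0.0398). With trended robust variance member calls were 1 at 258.1 mg/kg and 1 for the slope, and with a fold of at least 1.5 they were 1 at 516.2 mg/kg. The cause was not tested, except that the last setting drops small changes by construction. Over arrays left out in turn, member calls ranged from 1 to 1 at 64.6 and 129.2 mg/kg, 1 to 3 at 258.1, 1 to 4 at 516.2 and 3 to 5 at 1032.5 mg/kg. They ranged from 3 to 3 by the F test, 1 to 2 for the slope and 0 to 0 between neighbouring doses. Without vehicle replicate 6 they were 4 at 516.2 mg/kg (with Ccng1 and Rprm) and 5 at 1032.5 mg/kg (with Gadd45a and Phlda3). No clear pairing by replicate number was seen. Over 45 same-numbered pairs of arrays the deviations from group means correlated at a mean r of 0.03 (-0.28 to 0.39), with 13 over 0.1. Over 90 differently numbered pairs the mean r was -0.01 (-0.44 to 0.30), with 23 over 0.1. Such a mean cannot show whether same-numbered arrays were handled together. With the replicate block 5 members were called at 1032.5 mg/kg (Cdkn1a, Mdm2, Rprm, Gadd45a and Phlda3) and Mdm2 at 516.2 mg/kg was not (adjusted p = 0.0986), while Phlda3 at 258.1 mg/kg (log2 change -0.96, adjusted p = 0.0104) and Rprm at 516.2 mg/kg (-1.68, adjusted p = 0.0361) were. This block gives the unmatched vehicle numbers 4 to 6 terms of their own, so they no longer inform the dose comparisons.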
